A study of Xenopus tropicalis with 9 samples.

Results

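The genes described here encode the proteins of the tight junction, taken as every gene in the deposited tables whose symbol starts with cldn and a digit, tjp and a digit, ocln, marveld or cgn. They number 31 of 30330 genes: 22 claudin genes and 9 genes for MARVEL-domain proteins and scaffold proteins. The choice used symbols, not levels, although the high ovary level of cldn6.1 was known when the set was proposed. Messenger RNA was sequenced in 9 libraries from adult western clawed frogs, Xenopus tropicalis, with no treatment or genotype named in the labels. Head and heart each have a female and a male library (n = 2 per tissue), while lung, ovary, intestine and GI tract have 1 female library each and testes 1 male library. The labels do not say which animals gave the tissues or how many were pooled. Nor do they say which parts of the gut the intestine and GI tract samples hold. The p-values here therefore reflect variation among these samples, part of which may be technical. In the fit of all 9 libraries that variation is the female against male difference within head and within heart.

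Tight junctions seal the space between neighbouring epithelial or endothelial cells near their apical side. Claudins form the strands of the seal and set which ions pass between cells: some close the space and others form pores. Occludin (ocln) and tricellulin (marveld2) are MARVEL-domain membrane proteins of the same strands, tricellulin at the points where cells meet at corners. Inside the cell, the zonula occludens scaffolds (tjp1 and tjp3 among them) and the linkers cingulin (cgn) and paracingulin (cgnl1) tie the strands to the cytoskeleton.

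Levels are given in TPM (transcripts per 1000000, scaled by the authors for gene length and depth), and total counts ran from 27628254 to 35044545 per library. A level in a whole organ cannot tell fewer cells of a type from less RNA per cell. All 31 genes were found in the RefSeq gene table by symbol. Of them, 22 reached 20 TPM in at least 1 library, 10 were at 1 TPM or more in all 9 libraries, and 4 stayed under 1 TPM in every library. Lung held the highest level of 10 genes, male head of 5, GI tract of 4, and female head, ovary, testes and intestine of 3 each. Neither heart held the highest level of any gene. The oocyte markers, a list of 32 genes of which 22 were in the tables, summed to 11040 TPM in female heart and 6806 in lung, above the 5556 of ovary, and in this the female heart and lung libraries stand apart from their labels. In the markers of their own tissues they did not. Cardiac muscle markers summed to 64570 TPM in female heart, 101300 in male heart and at most 960 elsewhere. Lung epithelium markers summed to 22150 TPM in lung and at most 980 elsewhere. The female and male heart also differed in their epithelial list of 18 genes. Its sum was 2742 against 902 TPM and its median 49.3 against 0.475 TPM. Leaving out either heart changed the number of members called more than leaving out a head. Lung against the other tissues and intestine against GI tract were exceptions. In the remaining comparisons the calls over all genes also moved more without a heart, so this is no trait of the members.

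**Figure D1:**
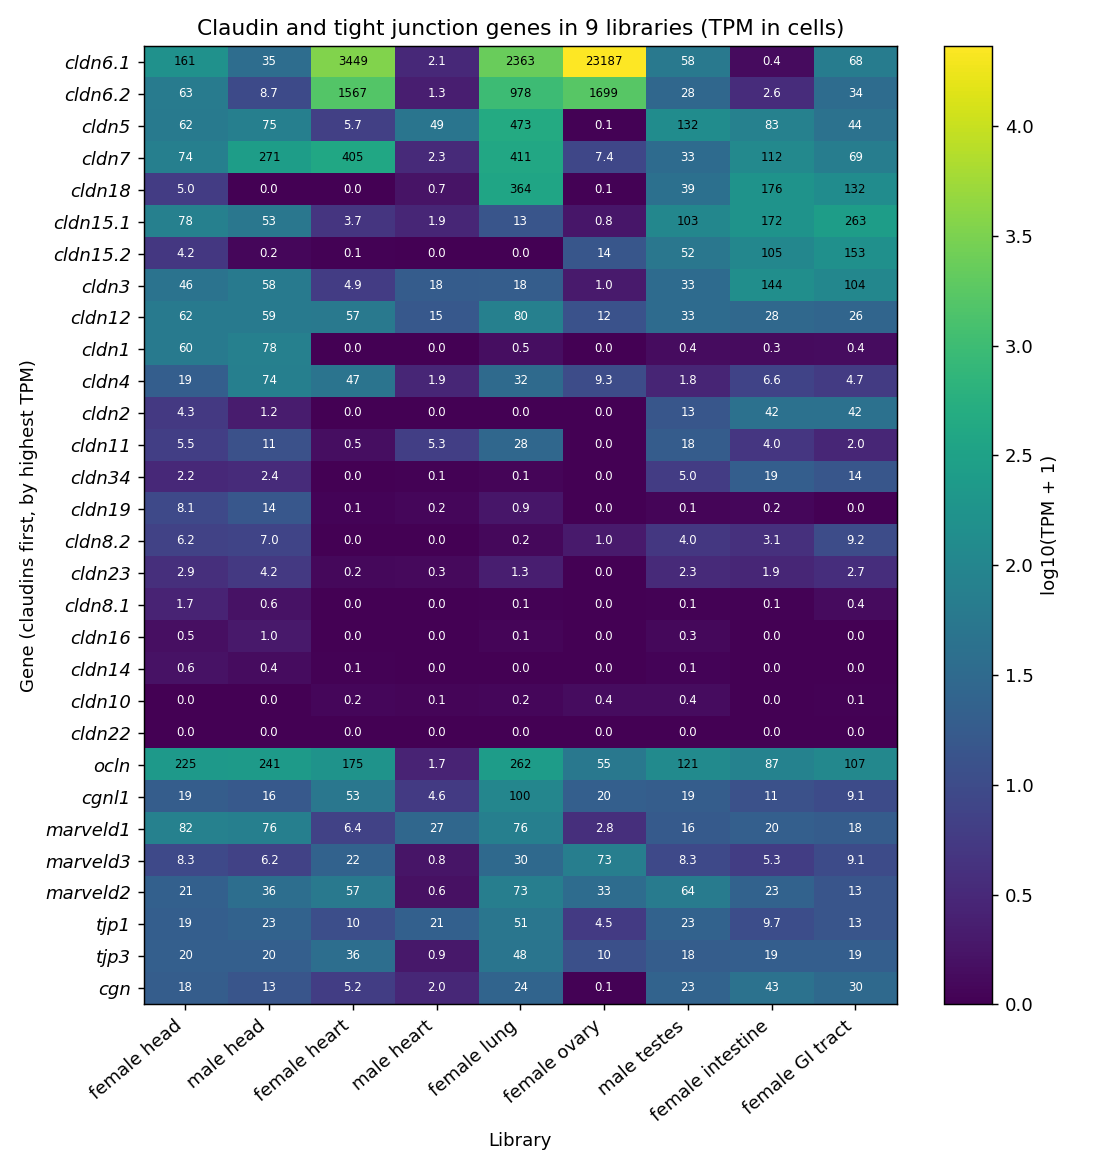
TPM of 30 of the genes (rows, claudins first and then the others, each ordered by highest level) in the 9 libraries (columns), with TPM printed in each cell and colour giving log10(TPM + 1). The pair cldn6.1 and cldn6.2 is bright in ovary, female heart and lung, cldn1 in the heads, and cldn15.1, cldn15.2 and cldn18 in the gut libraries.

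The claudin RNA of ovary was nearly all from cldn6.1, a gene whose mouse relative is known from embryonic epithelia and pluripotent cells. It stood at 23187 TPM in ovary, 3449 in female heart, 2363 in lung, 161 in head of the female, 67.6 in GI tract, 57.8 in testes, 34.9 in head of the male, 2.15 in male heart and 0.36 in intestine. In ovary it ranked 1 among all genes by TPM and took 465259 counts, or 1.684% of the library (95% Wilson interval 1.679 to 1.689, counting error only), and 93.0% of the summed claudin TPM. It ranked 27 in both female heart and lung. The rule for the gene set named this ovary level, so it is described here and its own ovary test is left out. The gene stays among the members counted in the ovary comparisons below.

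Its neighbour on chromosome 9 in the RefSeq table of UCB_Xtro_10.0, cldn6.2, stood at 1699 TPM in ovary, 1567 in female heart, 978 in lung, 63.5 in female head, 34.0 in GI tract, 27.7 in testes, 8.74 in male head, 2.57 in intestine and 1.32 in male heart. The genes thus took nearly the same order over the libraries, but not the same proportions. The TPM of cldn6.1 was 13.65 times that of cldn6.2 in ovary (95% exact counting interval 13.5 to 13.79). In female head, female heart, lung, testes and GI tract the ratio lay between 1.991 and 2.529. It was 3.998 in male head (3.299 to 4.872), 1.629 in male heart from 39 and 25 counts (0.9611 to 2.808), and 0.1401 in intestine from 6 and 53 counts (0.0492 to 0.3256). The intervals cover counting error in 1 library each, and how reads of similar copies were divided between these genes was not tested.

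Both cldn6 genes rose in the female libraries of head and heart. In heart they were at 3449 and 1567 TPM in the female against 2.15 and 1.32 in the male, and in head at 161 and 63.5 against 34.9 and 8.74, so the female library was the higher in both tissues, with 1 library per sex in each. With terms for tissue and sex, edgeR's quasi-likelihood test gave log2 fold changes of 6.24 (SE 1.73, adjusted p = 0.0223) for cldn6.1 and 6.37 (SE 1.55, adjusted p = 0.00418) for cldn6.2. They were the only members called, 2 of 27 tested (7.41%), against 1.55% of all genes called higher in females, and none was called lower, against 0.0726% of all genes. That fit has 1 residual degree of freedom, the tissue by sex interaction, so the error it uses is how far the sex difference differs from head to heart; animals of 1 sex are not compared. Without a term for tissue, edgeR called neither gene, as it called 0 of 19276 genes. With both terms, limma on log2(TPM + 1) also called 0 members and 0 of all genes. Of the 22 oocyte markers, 18 also rose in females. In head their sum was 414 TPM for the female and 40.7 for the male, in heart 11040 and 36.8, and their part in the result was not tested.

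Over all 9 libraries the oocyte list and cldn6.1 agreed at the bottom of the order and differed at the top. Male head, male heart and intestine were the lowest 3 libraries for each, and in intestine 8 of the 22 oocyte markers had 0 counts. Ovary was first for cldn6.1 but behind female heart and lung for the oocyte sum. Testes, at 2207 TPM of oocyte markers, lay above female head, at 414, whereas cldn6.1 lay lower in testes (57.8) than in female head (161). The testes sum was led by dazl (856 TPM) and ddx25 (478), both higher there than in any other library. In female head they stood at 7.75 and 9.43 TPM. Other list genes went either way: zp4 was lower in testes (22.9 against 56.5 TPM) and zpd higher (13.2 against 7.22). This part of the order thus depends on which genes the list holds.

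**Figure D2:**
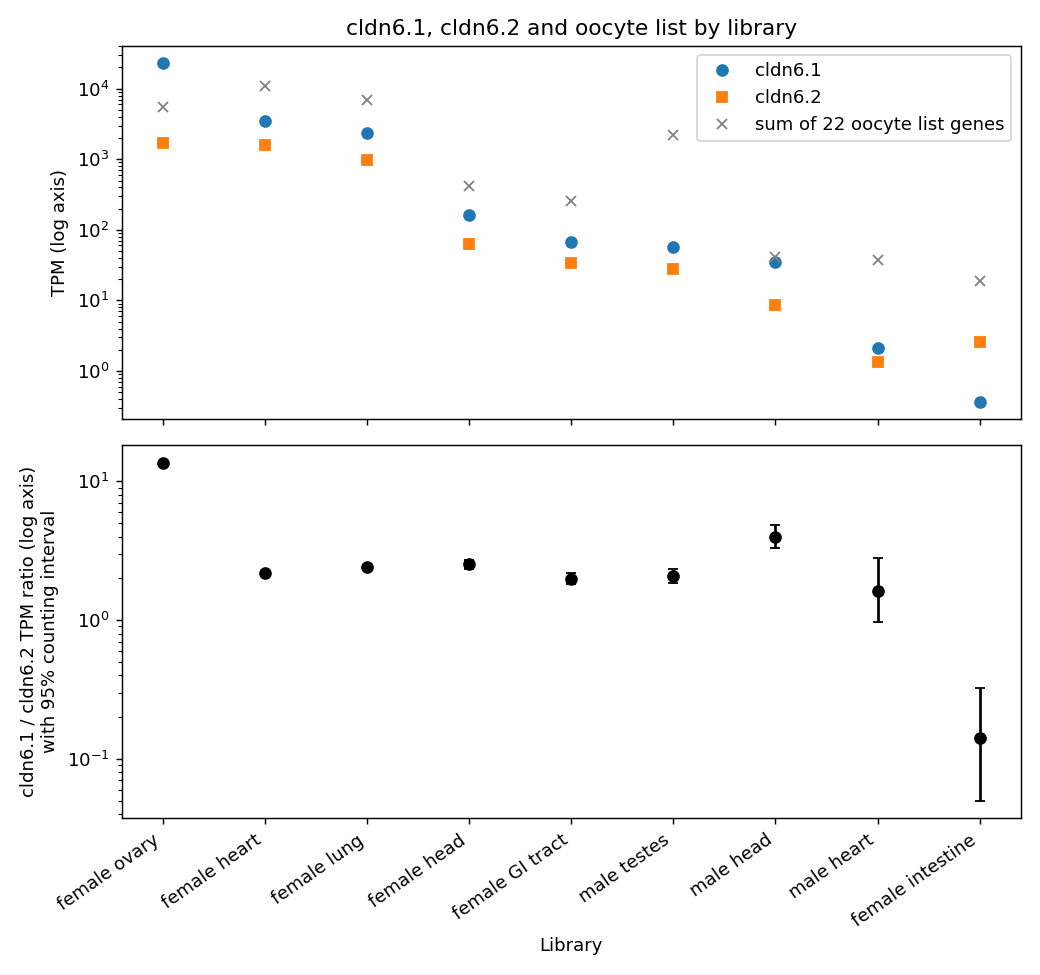
Upper panel: TPM on a log axis of cldn6.1, cldn6.2 and the summed oocyte list in each library, ordered by cldn6.1. Lower panel: ratio of cldn6.1 to cldn6.2 TPM on a log axis, with bars giving 95% counting intervals; ovary, at 13.65, lies above the other 8 libraries and intestine, at 0.1401, below them.

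Head was the tissue of cldn1 and cldn19. In mouse, cldn1 is needed for the water barrier of the skin, and cldn19 is made in Schwann cells and kidney. The level of cldn1 was 59.9 TPM in the female and 78.3 in the male head, and between 0 and 0.48 in the other 7 libraries. For cldn19 the heads gave 8.08 and 14.4 TPM, and the other libraries 0 to 0.86. Both heads lay above every other library for these 2 genes, and also for cldn8.1, cldn14, cldn16 and cldn23 at lower levels. Of these, cldn14 and cldn16 stayed under 1 TPM, with 9 to 18 counts in each head. Genes set apart in this way were not counted over all genes, so this gives no result about the members. Head against the mean of the other 6 tissues called these 2 of 30 members higher (6.67%), below the 9.94% of all genes called higher, and called none lower, against 0.0217% of all genes. edgeR gave log2 fold changes of 8.96 for cldn1 (SE 0.78, adjusted p = 0.0156) and 6.71 for cldn19 (SE 0.87, adjusted p = 0.0245). With tissues under 3 counts raised to 3 counts, these became 7.94 and 4.96. Of the 2 genes, cldn19 had at most 9 counts in any library other than the heads. It passed the filter on low counts through the heads alone and could hardly be called lower, so its call adds little to its levels. Without the male head only 1 member was called (5.79% of all genes). Without the male heart 14 of 30 were called and without the female heart 10 of 30, as all genes rose to 43.5% and 37.0%. Epidermis markers, 7 of 9 found, summed to 7583 and 7396 TPM in the female and male head, and to 16.9 to 1021 TPM elsewhere. Myelin and glial markers, 8 of 10 found, summed to 297 and 375 TPM in the heads, and to 0.65 to 117 TPM elsewhere. The part of these lists in the result was not tested.

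Head held more of several claudins than heart. With terms for tissue and sex, 7 of 27 members rose in head (25.9%) against 13.0% of all genes, and 0 fell, against 1.42% of all genes. All 7 are claudins. Of these, cldn1, cldn2, cldn8.1, cldn8.2, cldn19 and cldn34 had at most 4 counts in each heart. They passed the filter on low counts through the heads alone and could hardly be called lower. The filter thus partly set these shares, and genes that passed it in this way were not counted over all genes. The lowest adjusted p was that of cldn1, with 2 counts in female heart and 0 in male heart (adjusted p = 1.87e-10, edgeR). Since the filter passed cldn1 through the heads alone, this p-value adds little to its levels. The gene of a cation pore of mouse intestine, cldn15.1, reached 77.9 TPM in the female and 53.0 in the male head against 3.67 and 1.92 in the hearts, a log2 fold change of 3.81 (SE 1.14, adjusted p = 0.00913). For both genes each head lay above each heart.

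Among the other called claudins the levels were lower. All of them passed the filter on low counts through the heads alone, so their calls add little to their levels. The pair cldn8.1 and cldn8.2, neighbours on chromosome 2, gave 1.72 and 6.22 TPM in the female and 0.64 and 7.01 in the male head. In the hearts they held 0 and 0 counts (cldn8.1) and 1 and 0 counts (cldn8.2), with adjusted p = 0.0461 and 0.000486 by edgeR. The pore claudin cldn2 gave 4.31 TPM in the female and 1.18 in the male head with 0 counts in both hearts (adjusted p = 0.00853, edgeR). For cldn34 the heads gave 2.21 and 2.42 TPM and the hearts 1 and 2 counts (adjusted p = 0.0494, edgeR), and cldn19 had 1 and 4 counts in female and male heart (log2 fold change 5.56, SE 1.74, adjusted p = 0.0141). These calls rest on the sex term: without it edgeR called 0 of 27 members, as it did 0 of 19276 genes, with 4670 genes at an unadjusted p under 0.05. DESeq2 with the sex term called 5 members (12.2% of all genes), and limma on log2(TPM + 1) called 0 members and 0.955% of all genes.

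The other members did not split head from heart in one way. Without the sex term, edgeR called 17 of 30 members when the male heart was left out (50% of all genes) and 14 of 29 when the female heart was (29.7%). In both of those fits cldn1, cldn15.1, cldn19, cldn34 and cldn8.2 rose in head. Tricellulin, in contrast, was lower in head than in the female heart (log2 fold change -1.58, SE 0.38, adjusted p = 0.0477, edgeR), yet higher in head than in the male heart (4.53, SE 0.53, adjusted p = 0.015, edgeR). The lone heart in each of these fits is taken to vary as the heads do.

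**Figure D3:**
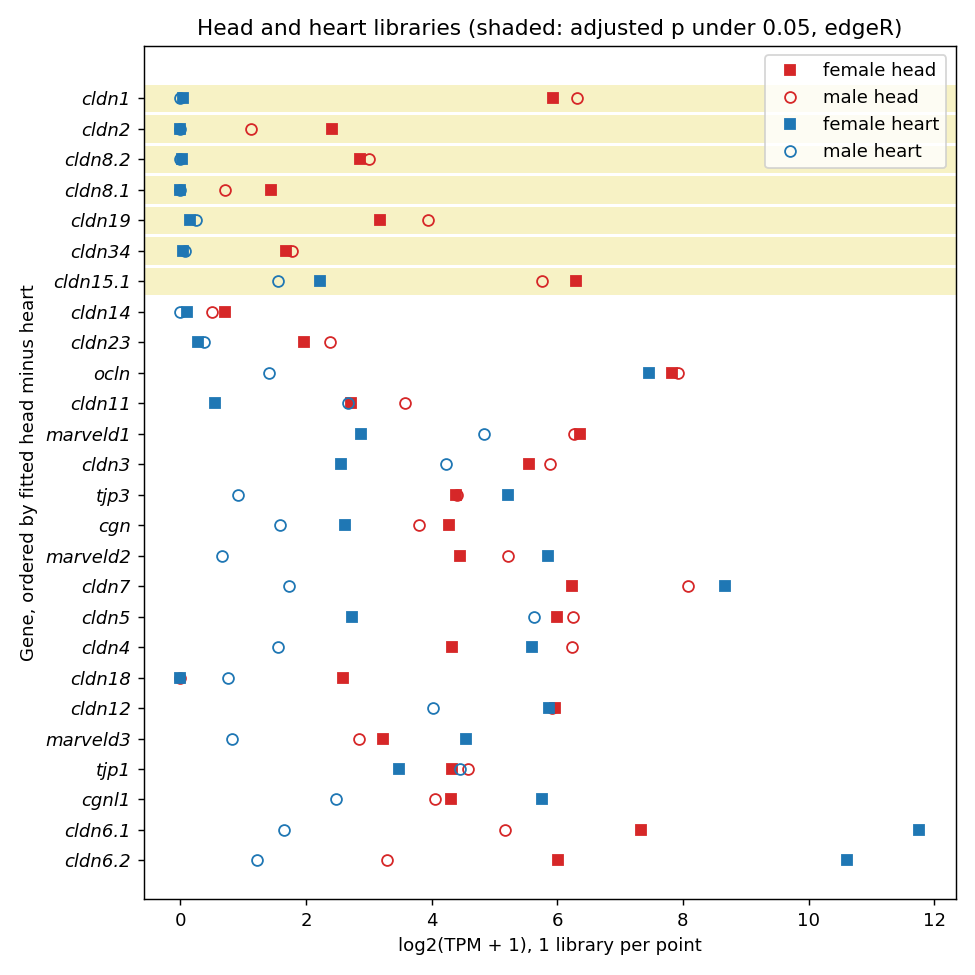
Levels as log2(TPM + 1) of 26 of the tested genes in the 2 head libraries (red) and 2 heart libraries (blue), squares female and open circles male, ordered by the fitted head minus heart difference. In the 7 shaded genes (adjusted p under 0.05) both heads lie above both hearts; for ocln, marveld2 and tjp3 the female heart lies near the heads and the male heart far below.

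The hearts of the female and the male differed widely in their junction genes, with 1 library each and so no test. Of the 24 members that reach 10 TPM in some library, 10 were at least 4-fold higher in the female heart on the log2(TPM + 1) scale (41.67%), against 19.8% of all genes at that level. They include cldn6.1, cldn6.2, cldn7, cldn4, ocln, marveld2, marveld3, tjp3 and cgnl1. Occludin was at 175 TPM in the female heart and 1.67 in the male heart. Tricellulin was at 57.1 against 0.59 TPM, and the scaffold gene tjp3 at 36.1 against 0.88. The epithelial claudin cldn7 stood at 405 TPM in female heart, 411 in lung and 2.33 in male heart.

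The same 10 genes, chosen for their level in the female heart, held 0.5258 to 1.603 times their lung TPM in the female heart. Over the 19 members at 10 TPM or more in lung the ratio of female heart to lung had a median of 0.6292, with cldn18 at 0, cldn5 at 0.01198 and cldn11 at 0.01699. Over all 9748 genes at 10 TPM or more in lung the median was 0.6849, and over 21 oocyte markers it was 1.172 (0.8203 to 2.592). Lung epithelium did not follow: its markers summed to 22150 TPM in lung and 26.6 in female heart, with the surfactant gene sftpc at 15017 and 0.11 TPM. Endothelial markers summed to 528 TPM in lung, 20.4 in female heart and 152 in male heart. The part of these lists in the result was not tested.

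Genes lower in the female heart were fewer: 2 of 24 members (8.333%) at 4-fold or more, against 5.45% of all genes. The endothelial claudin cldn5 was at 5.66 TPM in the female and 48.6 in the male heart, and cldn11, a claudin of mouse myelin and Sertoli cells, at 0.47 and 5.34 TPM. Between the heads, cldn6.1, cldn6.2, cldn15.2 and cldn18 were at least 4-fold higher in the female (4 of 24, 16.67%, against 3.05% of all genes). None was 4-fold lower, a direction that was not counted over all genes. Of the 4 higher genes, cldn15.2 and cldn18 were low in the female and male head, at 4.19 and 0.19 TPM and at 5.04 and 0 TPM. Female head also held 666 TPM of intestinal, 1608 of stomach and 1089 of exocrine pancreas markers, against 35.02, 4.81 and 5.91 TPM in male head, and their part in these differences was not tested.

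**Figure D4:**
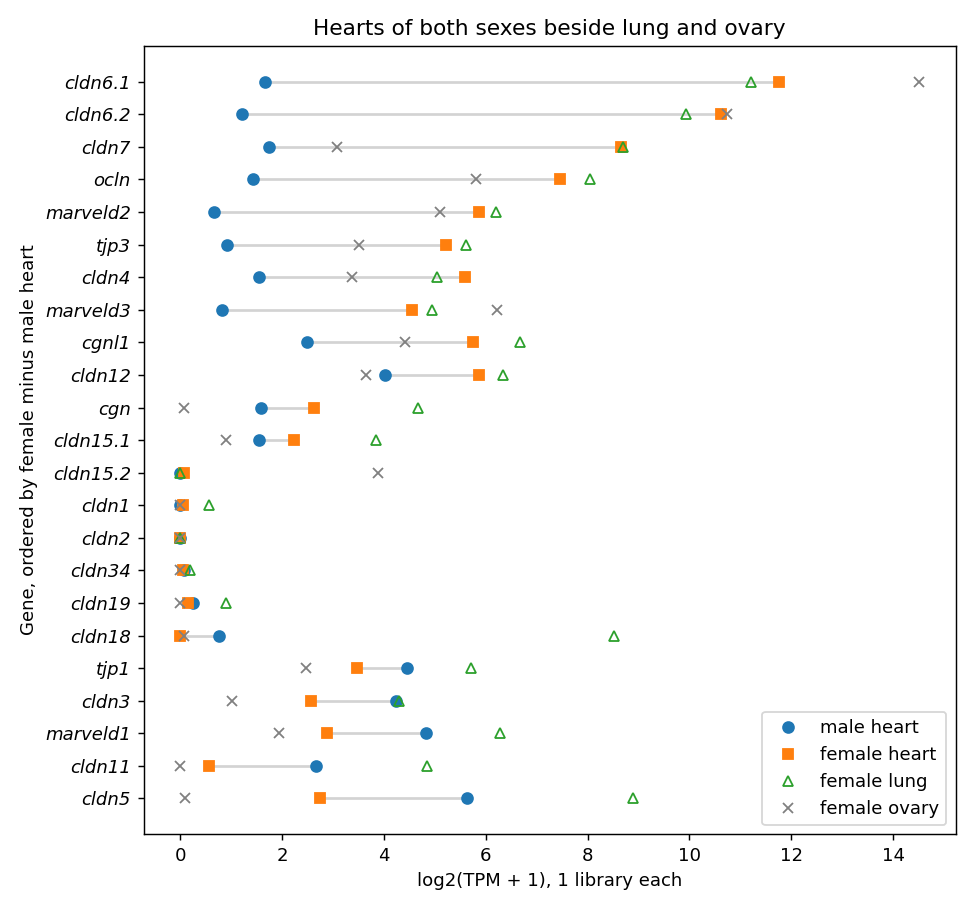
Levels as log2(TPM + 1), 1 library per point, of 23 of the genes that reach 10 TPM in some library, in male heart, female heart, lung and ovary, ordered by female minus male heart; grey lines join the hearts. From cldn6.1 down to cgnl1 the female heart lies near lung and far above the male heart, while cldn5 and cldn11 lie lower in the female heart than in the male.

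The gut libraries held a set of claudins at higher levels than the hearts did. Pore-forming cldn15.1 was at 263 TPM in GI tract, 172 in intestine, 103 in testes and 77.9 in female head, with 53.0 in male head, 13.4 in lung and at most 3.67 in the hearts and ovary. A second gene of that name, cldn15.2, gave 153 TPM in GI tract, 105 in intestine, 51.8 in testes and 13.8 in ovary, and at most 4.19 elsewhere. The levels of cldn2 were 42.1 TPM in GI tract, 41.7 in intestine and 13.5 in testes, with 0 in female and male heart, lung and ovary. Gut and testes thus headed the order for all 3 pore genes.

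Barrier-type cldn3 stood at 144 TPM in intestine and 104 in GI tract, then 58.4 and 45.8 in male and female head, 33.1 in testes, and 1.03 to 18.5 in the hearts, lung and ovary. For cldn18, which mouse and human use in both lung and stomach, lung led with 364 TPM, followed by intestine with 176, GI tract with 132 and testes with 39.5. Its remaining libraries lay between 0 and 5.04 TPM. Cingulin was highest in intestine (42.5 TPM) and GI tract (30.5). Claudin cldn34 was at 19.1 and 13.6 TPM in intestine and GI tract and 5.02 in testes.

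For intestine and for GI tract against the mean of the other 6 tissues, edgeR called 0 members and 0.0% of all genes, with 10 and 9 members at an unadjusted p under 0.05. DESeq2 called 8 members in intestine (6 higher, and both cldn6 genes lower) and 6 in GI tract, all higher, among them cldn2, cldn15.1, cldn15.2 and cldn34 in both. It called 3.36% of all genes higher and 1.71% lower in intestine, and 3.32% higher in GI tract, while limma called 0 members and 0.0% of all genes in each. Between intestine and GI tract, with 1 library each, a count of 0 calls does not show that they are alike. No member and no gene was called between them (0.0%, edgeR, with 0 members and 231 genes at an unadjusted p under 0.05), and DESeq2 and limma also called 0 members, with 0.121% and 0.0% of all genes. Of the 18 members at 10 TPM or more in GI tract, 16 had an intestine level 0.6537 to 1.906 times that of GI tract. The exceptions were cldn6.1 at 0.36 against 67.6 TPM and cldn6.2 at 2.57 against 34.0.

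In testes, some claudins of the gut libraries lay at similar fractions of their GI tract level. The ratio of testes to GI tract TPM was 0.299 for cldn18, 0.3187 for cldn3, 0.3192 for cldn2, 0.3375 for cldn15.2, 0.3699 for cldn34 and 0.3899 for cldn15.1, a group of 6 singled out after their values were seen. Their narrow range, and its gap from the others, thus partly follow from that choice. The other 12 members at 10 TPM or more in GI tract gave 0.483, for cldn7, to 4.835. Over all 6093 genes at that level the median was 1.424. In the gut libraries cldn7 was also high, at 112 TPM in intestine and 68.8 in GI tract. Intestinal, stomach and pancreas markers gave medians of 0.3015, 0.33 and 0.3117, and their sums in testes were 8966, 23290 and 18630 TPM. Their part in the testes levels of these claudins was not tested.

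Other junction genes were higher in testes than in GI tract: tricellulin at 64.2 against 13.3 TPM and cldn5 at 132.5 against 43.5. The level of cldn11 was 17.7 TPM in testes against 1.96 in GI tract, second to the 27.7 of lung. Sertoli and testis soma markers summed to 908 TPM in testes and to 377 and 376 TPM in female and male head. The testes sum was led by cyp17a1 at 491 TPM, while sox9 was lower in testes (70.7 TPM) than in female and male head (156 and 139). The part of this list in the cldn11 level was not tested. Testes against the other 6 tissues called 0 members and 0.0% of all genes in edgeR, with 2 members at an unadjusted p under 0.05. DESeq2 called 1 member (3.69% of all genes) and limma 0 (8.5%).

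**Figure D5:**
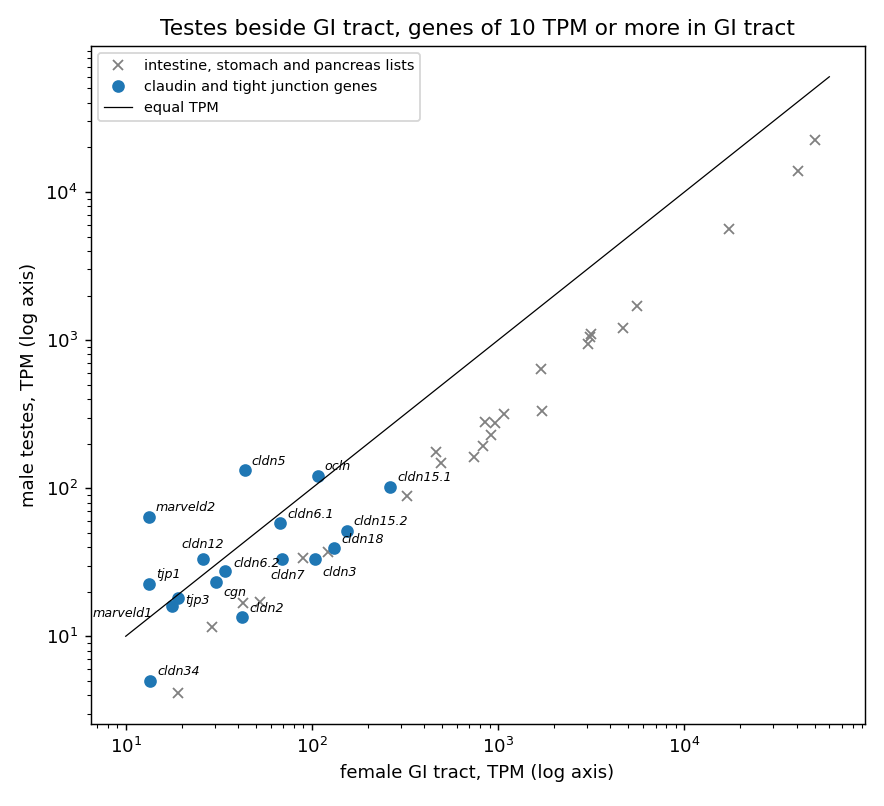
TPM in testes against TPM in GI tract, both on log axes, for 17 tight junction genes (blue, named) and the intestinal, stomach and pancreas markers (grey crosses) at 10 TPM or more in GI tract; the line marks equal TPM. The 6 claudins chosen by their values, from cldn34 to cldn15.1, lie with the crosses at 0.299 to 0.3899 of the GI tract level. Genes marveld2 and cldn5 lie above the line.

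Lung led for the endothelial and several epithelial junction genes. The level of cldn5, which seals the vessels of the mouse brain, was 473 TPM in lung, 132.5 in testes, 82.9 in intestine, 74.8 and 62.5 in male and female head, 48.6 in male heart, 43.5 in GI tract, 5.66 in female heart and 0.06 in ovary. Endothelial markers were also highest in lung, at 528 TPM, and lowest in ovary, at 1.77, where 8 of 14 had 0 counts. Between these ends the order differed. Testes, second for cldn5, held 57.3 TPM of the markers, and male heart, second for the markers, held 152. The part of these markers in the result was not tested. Lung against the other 6 tissues called 0 members and 0.0% of all genes in edgeR, with 4 members at an unadjusted p under 0.05. DESeq2 called 3 members, all lower in lung (cldn2, cldn15.2 and cldn8.2), where lower was also the commoner direction over all genes (1.44% lower, 0.303% higher), and limma called 0 members and 0.0% of all genes.

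The epithelial claudins cldn7 and cldn4 were high in lung, female heart and male head. For cldn7 the levels were 411, 405 and 271 TPM in those libraries, 112 in intestine, 74.3 in female head, 68.8 in GI tract, 33.2 in testes, 7.41 in ovary and 2.33 in male heart. For cldn4, a neighbour of cldn3 on chromosome 2, they were 31.8, 47.3 and 74.5 TPM, with 19.1 in female head, 9.30 in ovary and 1.79 to 6.63 in the remaining 4 libraries. Both were lower in the female than in the male head and higher in the female than in the male heart. The broadest claudin was cldn12, which lay between 11.5 TPM in ovary and 79.8 in lung in every library.

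Of the 9 MARVEL and scaffold genes, each was lowest in the male heart or in ovary. Occludin lay between 54.9 TPM in ovary and 262 in lung in 8 libraries, with 225 and 241 in female and male head, 121 in testes, 107 in GI tract and 86.5 in intestine, against 1.67 in the male heart. Tricellulin ran from 13.3 TPM in GI tract to 72.9 in lung, with 64.2 in testes, 36.1 and 20.8 in male and female head, 33.3 in ovary and 22.7 in intestine, and was 0.59 in the male heart. Ovary led for marveld3, another occludin relative, at 73.0 TPM, followed by lung at 29.6 and female heart at 22.4, with 0.77 in male heart and 5.26 to 9.13 in the other 5. The fourth MARVEL gene, marveld1, had another pattern: 81.6 and 76.1 TPM in female and male head, 76.2 in lung, 27.4 in male heart, 6.36 in female heart, 2.84 in ovary and 15.9 to 20.4 in testes, intestine and GI tract.

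Scaffold gene tjp1 also departed from the others in heart, at 21.0 TPM in the male and 10.1 in the female. Elsewhere it was at 51.2 in lung, 22.9 and 19.0 in male and female head, 22.6 in testes, 13.4 in GI tract, 9.72 in intestine and 4.50 in ovary. For tjp3 the male heart gave 0.88 TPM, ovary 10.4 and lung, the highest, 47.9. Of the linkers, cgnl1 was highest in lung (100 TPM) and female heart (52.8) and lowest in male heart (4.58), with 9.08 to 20.3 elsewhere. Cingulin was at 24.4 TPM in lung, 23.3 in testes, 18.3 and 13.0 in female and male head, 5.16 and 2.01 in female and male heart, and 0.05 in ovary. For heart against the other 6 tissues edgeR called 0 members and 0.0% of all genes, with 2 members at an unadjusted p under 0.05. DESeq2 called 7 members, all lower in heart and all claudins, against 4.45% of all genes lower, and limma called 0 members and 0.0% of all genes.

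Ovary, apart from the cldn6 genes, held little claudin RNA: the other 20 claudins summed to 45.4 TPM. They summed to 94.4 TPM in male heart and 442.5 to 1422 in the other 7 libraries. Many other genes were also lower in ovary than in lung. Among genes at 10 TPM or more in lung, the median ratio of ovary to lung was 0.1237 over 19 members. Over all 9748 such genes it was 0.1585. Against the mean of the other 6 tissues, edgeR called 4 of 30 members lower in ovary (13.3%, against 4.41% of all genes) and 1 higher (3.33%, against 8.16%). Cingulin was at 0.05 TPM in ovary from 8 counts (log2 fold change -7.11, SE 1.21, adjusted p = 0.0383) and cldn15.1 at 0.85 TPM (-5.04, SE 1.02, adjusted p = 0.0477). The median over all genes was -1.87 in this comparison, so these lie lower than most genes do. Both were below every other library. Claudins cldn23 and cldn34 had 0 counts in ovary (adjusted p = 0.0474 and 0.0492, edgeR), where a count of 0 allows up to 0.109 counts per 1000000.

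The member called higher, cldn10, a channel claudin of the mouse kidney, was at 0.39 TPM in ovary from 26 counts, at 0.40 in testes and at 0 to 0.21 elsewhere. Its log2 fold change of 4.12 (SE 0.82, adjusted p = 0.047, edgeR) therefore concerns a gene near the limit of detection. The ovary count depended on the method: with DESeq2 size factors edgeR called 3 members (13.3% of all genes), with no filter on low counts 0 (3.98%), and DESeq2 itself 14 of 31 (30.8%), 4 higher and 10 lower. Without the male heart it was 14 of 30 (52.1% of all genes) and without the female heart 16 (55.1%). The direction of the balance also depended on it: limma called 3 of 30 members lower against 14.0% of all genes, and of all ovary calls 64.9% were higher in edgeR, 38.2% in DESeq2, 20.6% in limma, 40.7% without the male heart and 40% without the female heart. The fitted median of the 30 members was -2.09, beside the fitted -1.87 of all genes. With tissues under 3 counts raised to 3 the median of the members was -0.50. That median was not computed over all genes, so it has no value to stand beside. Ovary against testes called 0 members and 0.0% of all genes in edgeR, with 7 members at an unadjusted p under 0.05, while DESeq2 called 12 of 31 (21.9% of all genes) and limma 4 of 30 (21.3%).

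Across the 7 tissues together, the edgeR test of any difference called 0 of 30 members and 0.0% of all genes. The lowest adjusted p of a member was 0.0969, and 11 members and 7193 genes had an unadjusted p under 0.05. Those with the lowest unadjusted p were cldn34, cldn1, cldn15.1, cldn2 and cingulin. DESeq2 called 15 of 31 members (32.4% of all genes) and limma 4 of 30 (16.2%). By level alone, 3 members were at least 10 TPM and 4 times every other tissue in 1 tissue: cldn1 and cldn19 in head and cldn6.1 in ovary. At 2 times instead of 4, this number was 10. Neither number was counted over all genes, and the rule named the ovary level of cldn6.1, so they give no result about the members.

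Of the 31 genes, 9, all claudins, never reached 20 TPM. Besides cldn8.1, cldn8.2, cldn10, cldn19 and cldn34, these were cldn23, at most 4.23 TPM in male head, cldn16, at most 0.99 in male head, cldn14, at most 0.64 in female head, and cldn22, with a single count in testes. In human kidney cldn16 is needed for magnesium uptake, and cldn14 is known from the inner ear; cldn16 is the neighbour of cldn1 on chromosome 5. A further 3 claudins carry only a code in the deposited tables, and RefSeq names them cldn8.3, cldn17.1 and cldn17.3. The highest of them was cldn17.1, at 12.2 TPM in the female and 4.72 in the male head, and 0 in the other 7 libraries.

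Few other genes of the junction passed the tests. In a list of 38 polarity proteins, junctional adhesion molecules and associated factors, 33 were found. Between head and heart 1 rose, beside 13.0% of all genes, and 0 fell. The median log2 fold change of the list was -0.28, against 0.14 over all genes. Over the 27 claudin, MARVEL and scaffold genes tested it was 1.67, or 1.56 with libraries under 3 counts raised to 3. Of those 27, cldn1, cldn2, cldn8.1, cldn8.2, cldn19 and cldn34 passed the filter on low counts through the heads alone. The filter thus partly set their median. The gene that rose was ybx3, a Y-box protein that binds the tjp1 scaffold in mammals, with 4740 TPM in the female and 8172 in the male head, and at most 3.45 elsewhere (log2 fold change 10.99, SE 1.72, adjusted p = 1.99e-08, edgeR). The next most abundant, vapa, cxadr and sympk, were not called. The virus receptor and adhesion gene cxadr, for example, lay between 40.9 and 134.9 TPM in 8 libraries and at 4.36 in ovary. Female against male called 0 of the 33, beside 1.55% of all genes higher and 0.0726% lower. In ovary against the other 6 tissues 1 rose, beside 8.16% of all genes, and 0 fell, beside 4.41%. This gene, crb1, was under 1 TPM in every library and not highest in ovary. It was at 0.89 TPM in ovary, 0.91 in testes, 0.75 and 0.68 in male and female head, and at most 0.12 elsewhere.

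Of 11 relatives in the wider claudin superfamily, 9 were found, and 2 rose in head against heart, beside 13.0% of all genes. One was emp1, with 137 TPM in the female and 87.5 in the male head, against 1.61 and 7.41 in the hearts (4.14 on the log2 scale, SE 1.17, adjusted p = 0.00518, edgeR). The other was lim2, a lens fibre membrane gene, at 6.53 and 9.14 against 0.10 and 0.43 TPM (4.51, SE 1.55, adjusted p = 0.0291, edgeR). The most abundant relative was the desmosome gene perp, at 884 and 832 TPM in the heads and 39.3 to 363 in the others.

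Epithelial markers stood beside the claudin calls in head. Of the 18 found, 5 rose in head against heart, beside 13.0% of all genes (elf3, esrp1, grhl2, grhl3 and ovol1, regulators of epithelial genes). Of the others ctnnb1 fell, beside 1.42% of all genes (-3.06 on the log2 scale, SE 1.14, adjusted p = 0.0492, edgeR). Of the 5 that rose, grhl2 and grhl3 had 0 counts in the male heart, and ovol1 and elf3 in the female heart. The surface protein epcam gave 230 TPM in the female and 535 in the male head, 285 in the female and 1.80 in the male heart, and krt18 gave 223, 125, 1201 and 2.64. Their part in the levels of the junction genes was not tested.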

How the data were processed

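Total RNA of 9 libraries was extracted with Qiagen kits and prepared with Kapa mRNA reagents, per the labels' protocols. The authors deposited counts per gene and TPM. Per the submitters' processing notes RSEM 1.3 and deepTools were used, with no role given. For aligner, genome build and annotation, a statement is not given in the sources used here. The deposited values, read here as RSEM's expected counts after rounding, are whole; 1272 entries pair 0 counts with a positive TPM. The deposited TPM values sum to 1000000 per library. In the tables, 1 of 30331 rows names no gene and was left out (0.01125% to 1.777% of counts), and 0 library columns were unused. RefSeq served for names and neighbours only.

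Tests were edgeR 4.0.16 quasi-likelihood F tests with TMM factors and the default filter on low counts (R 4.3.3), with Benjamini-Hochberg adjustment over all genes tested and a threshold of 0.05. One fit took tissue means over 9 libraries (23090 genes, 2 residual degrees of freedom), in which tissues with 1 library are assumed to vary like head and heart. The error of that fit is the female against male difference within head and within heart. The other took tissue and sex over the 4 head and heart libraries (19276 genes, 1 residual degree of freedom). Standard errors come from the F statistic. Alternatives were DESeq2 1.42.0, its size factors, no filter, limma 3.58.1 on log2(TPM + 1), other terms, and leaving out libraries. The fits were also run on simulated counts as a check of the code, which does not measure their error in these data. Floors of 3 counts equal 0.0856 to 0.1086 counts per 1000000.

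Genes at 20 TPM or more in some library are given per library or as a range, apart from tjp3 and cldn11, given for some libraries only. Most of the others are given by their highest level. Up to 5 called members per direction have their fold printed. Some folds with one side at or near 0 counts are left out, and others are given with their counts or levels. Members, lists (19, with 219 of 258 symbols found) and tests were chosen with earlier results of these data known. Antisense and overlapping genes cannot be told apart, since the counting is not stated to use strand. The values of 1 gene of the set are not reported here, although it stays in the counts.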

Additional observations from a re-analysis of the deposited data

Results flagged for a closer look

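For 2 claudins that reach 10 TPM in head or heart, the sexes differed in opposite directions in the head and heart libraries. Each difference was at least 1 on the log2(TPM + 1) scale, with 1 library per sex and tissue, and was not tested. Genes of this kind were not counted over all genes, so their number gives no result about the members. The claudin cldn7 was lower in the female head (74.3 TPM against 271 in the male) and higher in the female heart (405 against 2.33), so the female minus male difference was 8.78 larger in heart than in head on the log2(TPM + 1) scale. For cldn4 the heads gave 19.1 and 74.5 TPM and the hearts 47.3 and 1.92, a difference of 5.96 on the same scale.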

How the results depend on the processing

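The call counts of members depended on the tool and on the heart libraries; the cause was not tested. With the share of all genes called in brackets, DESeq2 called 15 members for any difference among tissues (32.4%), 7 for heart (8.7%) and 3 for lung (1.74%). It called 14 for ovary (30.8%), 1 for testes (3.69%), 8 for intestine (5.07%), 6 for GI tract (3.54%) and 12 for ovary against testes (21.9%). Limma called 4 for any difference (16.2%), 3 for ovary (17.6%), 4 for ovary against testes (21.3%), 0 for head against heart (0.955%) and 0 for female against male (0%). In ovary, DESeq2 size factors gave 3 (13.3%) and no filter 0 (3.98%). Head against heart fell to 0 without the sex term and in the fit of all libraries, each with 0 genes called over all. Female against male fell to 0 without the tissue term, again with 0 genes called over all. At 2 times every other tissue 10 members were enriched, a number not counted over all genes. Leaving out 1 library gave 0 to 20 calls for any difference, 1 to 14 for head, 0 to 8 for heart, 0 to 3 for lung, 5 to 16 for ovary, 0 to 3 for testes, 0 to 8 for intestine, 0 to 8 for GI tract, 0 to 13 for ovary against testes, and 1 to 17 for head against heart without the sex term; the highest numbers came without 1 heart library. The calls over all genes moved too, from 0% up to 62.2% for any difference, 5.79% to 43.5% for head and 0% to 19.3% for heart. Intestine against GI tract stayed at 0 members in all settings run. DESeq2 size factors moved the median of all genes from -1.87 to -1.70 in ovary, from 0.42 to 0.54 in head and from 0.26 to -0.19 in lung, and the share of ovary calls that were higher from 64.9% to 75.7%; it was 38.2% with DESeq2, 20.6% with limma, and 40.7% and 40% without the male and the female heart. Of 142 refitted folds of named genes, 78 stayed past the threshold, 64 lost it and 0 changed sign. Female against male could not be refitted without a library, since no residual degree of freedom is left. No paired analysis was possible because the replicate numbers only name the samples and pair nothing; sex was the term used instead.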

Other observations

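The claudin that led each library differed, as a share of that library's summed claudin TPM. In ovary, female heart, lung and female head it was cldn6.1, with 93.0%, 62.25%, 49.62% and 24.09%. Male head was led by cldn7 (35.88%), male heart and testes by cldn5 (49.64% and 23.79%), intestine by cldn18 (19.55%) and GI tract by cldn15.1 (27.21%). Summed claudin TPM ran from 97.9 in male heart to 24930 in ovary. Claudins at 10 TPM or more numbered 11 in testes and GI tract, 10 in male head and lung, 9 in female head and intestine, 5 in female heart, 4 in ovary and 3 in male heart. These are single libraries, described and not tested.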
